A study of Rattus norvegicus with 20 samples.

Results

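Trauma-induced acute kidney injury was studied in rats, and the 9 genes described here were those expressed in the kidneys of Sham animals and far lower in at least 1 of 3 injury groups. They were Hrh3, Htr5b, Tril, Dok7, Synpo2l, Tnni3k, Smim5, Lrtm2 and Rd3l, taken by symbol as 9 of 34681 rows of the deposited table, each symbol matching 1 row. They were chosen by their difference from Sham in these same libraries, so every comparison of the 9 with Sham below is a description with no test. The choice followed no numerical threshold. The data are bulk, stranded, paired-end mRNA libraries from frozen rat kidney in 4 groups, with 3 RM-HS, 6 RM, 5 HS and 6 Sham libraries, and the labels neither spell out RM and HS nor give strain, sex, age or time. All 20 labelled libraries were used, although the series' design text speaks of 19, with 5 rather than 6 for RM. No source ties each library to its own animal, so the p-values below speak of the spread among libraries, part of which may be technical.

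These genes belong to no single pathway. Several are known from excitable tissue: Hrh3 is the histamine receptor that restrains transmitter release in the brain, Htr5b is a rodent serotonin receptor, and Dok7, Synpo2l and Tnni3k act in muscle. In acute kidney injury, tubular epithelial cells are known to lower many genes of their specialised functions while stress genes come on. RNA extracted from kidney tissue mixes all its cell types, so fewer cells of a type and less RNA per cell cannot be told apart in any value given here.

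The libraries held 45047179 to 109940948 counted reads, of which 42.2% to 54.7% lay on the mitochondrial genome. The 15954 rows that reached a count of 10 in 3 or more libraries were tested. All 9 genes passed this filter, which their Sham libraries alone satisfied. Kidney markers were present throughout, with no gene of the early proximal tubule, thick ascending limb or principal cell lists at 0 in any group. The Sham libraries were uneven in cortical markers, with the summed count of 7 early proximal tubule genes at 140043 in Sham 1 and 162267 in Sham 6 but 45237 to 80116 in Sham 2 to 5. As a percent of each gene's Sham mean, the median of the 9 genes was 90.6% in Sham 1 and 99.3% in Sham 6. It was 98.8%, 99.5%, 104% and 89.7% in Sham 2, 3, 4 and 5. Scaling each gene to its own Sham mean in part sets these medians. Single genes ranged from 18.9% to 135% in Sham 1, 41.0% to 182% in Sham 6 and 29.1% to 213% in Sham 2 to 5. The part of cortical sampling in the Sham levels was not tested.

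Reads were few but present. Levels are DESeq2-normalised read counts, which are not corrected for transcript length. A Sham library held between 15 and 818 reads of a given gene, and no injury library held more than 147. The genes were picked as silenced by injury, yet 102 of the 126 values in the 14 injury libraries were above 0. The remaining 24 were 0, and a 0 allows up to 3 reads, which corresponds to a normalised count of 2.49 to 4.80 depending on the library. None of the 54 Sham values was 0.

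**Figure D1:**
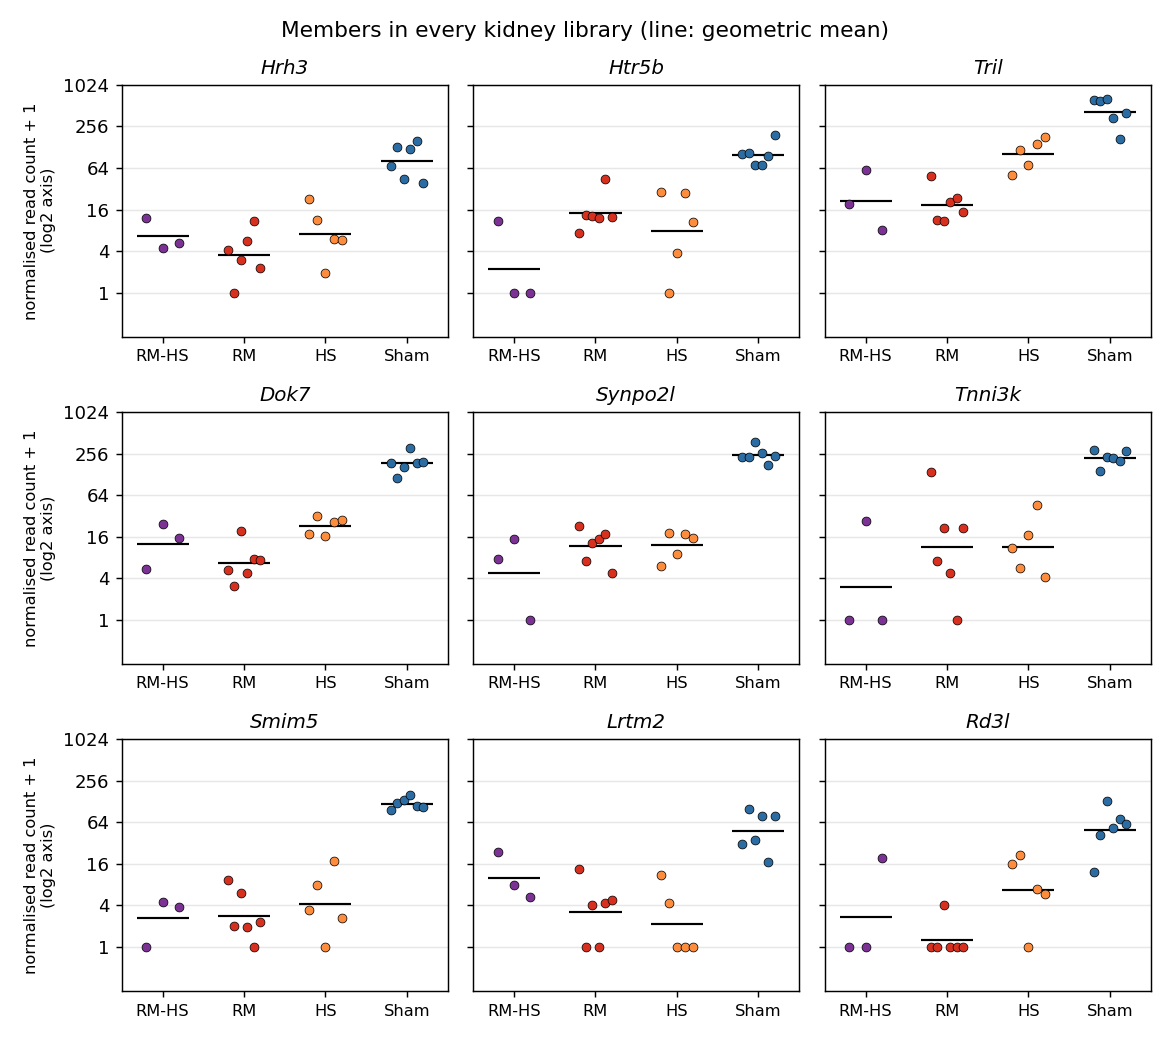
Normalised read count plus 1 of each gene on a log2 axis, with 1 point per library for RM-HS (3), RM (6), HS (5) and Sham (6), and a line at the geometric mean of the group. All injury libraries lie below all Sham libraries for 6 genes, while Tril, Lrtm2 and Rd3l have injury libraries that reach into the Sham range.

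Of the genes known as receptors or receptor partners, Hrh3 and Htr5b were wholly below the Sham range after each injury, and Tril was so in RM-HS and RM. Hrh3, the Gi-coupled histamine H3 receptor (GSRG0021238, rn6 chromosome 3, 175474311 to 175479395), had normalised counts of 10.9, 3.49 and 4.28 in RM-HS libraries. Across RM libraries it ranged from 0 to 9.99 with a median of 2.60, and in HS it was 21.6, 10.2, 0.902, 4.90 and 4.80, against 37.7 to 156 with a median of 92.3 in Sham. Every injury library lay below every Sham library. The differences in log2(count + 1) from Sham were -3.63 ± 0.75 for RM-HS, -4.54 ± 0.61 for RM and -3.54 ± 0.64 for HS (limma estimate ± SE). Within Sham it varied more than most of the 9, with a coefficient of variation of 53.4%, and it was lowest in Sham 1, 3 and 6.

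The promoter of Hrh3 is shown because its window was the richest in G and C among the genes with a window (73.7%, against a median of 51.7% over 33469 RefSeq windows). RefSeq windows run from 250 bases before to 50 bases after the gene start on the GRCr8 build, which is not the build of the counts. This one is chr3:187574210-187574509, minus strand, and capitals mark the 4 matches to the GC box GGGCGG, of which the first 2 overlap by a base.
Hrh3: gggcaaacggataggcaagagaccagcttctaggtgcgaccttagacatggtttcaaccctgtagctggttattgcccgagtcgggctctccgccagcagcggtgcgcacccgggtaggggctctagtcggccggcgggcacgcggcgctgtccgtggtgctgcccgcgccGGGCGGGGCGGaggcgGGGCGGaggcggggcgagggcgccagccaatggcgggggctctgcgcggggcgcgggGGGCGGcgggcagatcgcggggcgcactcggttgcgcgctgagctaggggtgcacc

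Htr5b, the serotonin 5B receptor (GSRG0009786, rn6 chromosome 13, 37479758 to 37492684), had 9.80, 0 and 0 in RM-HS libraries. Its RM values ran from 6.35 to 43.3 with a median of 11.8, and in HS it was 27.4, 0, 2.71, 26.4 and 9.61, against 68.6 to 190 with a median of 97.0 in Sham. No injury library reached the Sham range. Its mean in RM was 15.4% of the Sham mean, in HS 12.7% and in RM-HS 3.13%, and it was above 0 in each RM library. Without RM 5 the RM share was 10.2%, and the RM-HS share came from RM-HS 1 alone, the other 2 libraries having no read. The log2 differences from Sham were -5.49 ± 0.90, -2.79 ± 0.74 and -3.65 ± 0.77 for RM-HS, RM and HS.

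Tril, a leucine-rich repeat protein that assists Toll-like receptor 4 (GSRG0022838, rn6 chromosome 4, 83967695 to 83972540), had 18.5, 58.2 and 7.13 in RM-HS libraries. Counts in RM ran from 10.1 to 48.7 with a median of 16.7, and in HS it was 49.0, 116, 69.5, 144 and 178, against 170 to 634 with a median of 501 in Sham. RM-HS and RM lay wholly below Sham, whereas HS 5 stood above Sham 5, the lowest Sham library. In HS the mean was 24.1% of the Sham mean, the largest share that any of the 9 genes kept in any injury group. The log2 differences from Sham were -4.32 ± 0.58, -4.48 ± 0.47 and -2.06 ± 0.49 for RM-HS, RM and HS.

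Of the genes known from muscle, all 3 had every injury library below every Sham library. Dok7, the adaptor that activates the receptor kinase MuSK at the neuromuscular junction (GSRG0010717, rn6 chromosome 14, 80926654 to 80958700), had 4.36, 23.3 and 14.3 in RM-HS libraries. In the RM libraries it ranged from 2.08 to 18.2 with a median of 5.29, and in HS it was 16.6, 30.6, 15.3, 25.5 and 27.2, against 114 to 305 with a median of 186 in Sham. It was detected in all 14 injury libraries, the highest of them at 30.6, well under the lowest Sham library. The log2 differences from Sham were -3.88 ± 0.51, -4.81 ± 0.41 and -2.99 ± 0.43 for RM-HS, RM and HS.

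Synpo2l, an actin-associated protein of the muscle Z-disc (GSRG0036020, rn6 chromosome 15, 4064706 to 4074151), had 6.53, 14 and 0 in RM-HS libraries. Across RM libraries it ranged from 3.80 to 22.2 with a median of 13.0, and in HS it was 4.99, 17.0, 8.12, 16.6 and 14.4, against 172 to 380 with a median of 234 in Sham. The highest injury library and the lowest Sham library were far apart. Means in the injury groups were 2.72%, 4.97% and 4.86% of the Sham mean for RM-HS, RM and HS, and the log2 differences were -5.67 ± 0.64, -4.37 ± 0.52 and -4.33 ± 0.55. Without RM-HS 3, where no read was found, the RM-HS difference was -4.53, and without RM-HS 2 the RM-HS mean was 1.30% of the Sham mean.

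Promoters of Dok7 and Synpo2l are shown because their injury and Sham ranges lay far apart and both hold the E-box, the site of muscle regulatory factors among others. The Dok7 window is chr14:79923968-79924267, minus strand, and the Synpo2l window is chr15:3684760-3685059, plus strand, both on GRCr8. Capitals mark matches on either strand to the E-box CANCTG (1 in Dok7, 3 in Synpo2l), the nuclear receptor element TGACCT (1 in Dok7) and the GC box GGGCGG (3 in Dok7).
Dok7: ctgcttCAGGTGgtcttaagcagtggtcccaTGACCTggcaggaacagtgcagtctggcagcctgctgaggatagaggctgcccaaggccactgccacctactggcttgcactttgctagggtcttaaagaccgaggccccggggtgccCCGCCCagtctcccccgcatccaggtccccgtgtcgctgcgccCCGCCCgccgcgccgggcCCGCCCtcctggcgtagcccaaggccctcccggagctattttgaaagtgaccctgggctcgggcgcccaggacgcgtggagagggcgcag
Synpo2l: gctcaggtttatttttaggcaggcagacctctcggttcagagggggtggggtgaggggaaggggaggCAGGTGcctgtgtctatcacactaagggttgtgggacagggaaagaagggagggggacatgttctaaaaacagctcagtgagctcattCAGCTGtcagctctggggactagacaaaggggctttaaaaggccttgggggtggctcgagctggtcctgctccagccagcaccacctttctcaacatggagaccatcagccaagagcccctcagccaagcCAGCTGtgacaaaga

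Of the 9 genes, 8 had a RefSeq window and Smim5 had none in the table used. The E-box CANCTG was found in 5 of 8 windows, against 50.2% of all windows. The GC box was found in 5 of 8, against 33.1%, and the nuclear receptor element in 2 of 8, against 16.2%. None of the 8 held the AP-1 site TGANTCA, found in 7.33% of all windows, or the cyclic AMP element TGACGTCA, found in 1.83%.

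The E-box CACGTG was likewise in none of the 8 (6.42% of all windows). The same held for the TATA box, spelled TATAAA (14.2% of all windows), and for GTTAAT, a part of the HNF1 site (7.45% of all windows). Both strands were searched, and a match or its lack says nothing here about binding.

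Tnni3k, a heart kinase that binds cardiac troponin I (GSRG0016748, rn6 chromosome 2, 261069212 to 261337137), had 0, 25.6 and 0 in RM-HS libraries. Its RM values ran from 0 to 136 with a median of 13.2, and in HS it was 9.97, 4.54, 16.2, 45.1 and 3.20, against 143 to 292 with a median of 224 in Sham. One RM library came close to Sham: RM 1 stood at 136, or 59.7% of the Sham mean, while the next RM library was at 20.3. Without RM 1 the RM mean was 4.44% of the Sham mean, in place of 13.6% with it. The log2 differences from Sham were -6.22 ± 1.16, -4.29 ± 0.95 and -4.27 ± 0.99 for RM-HS, RM and HS.

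Skeletal muscle markers had few counts in all groups. The summed normalised count of 7 skeletal muscle markers was 43.6 to 72.2 in RM-HS, 11.4 to 56.1 in RM, 40.6 to 177 in HS and 27.4 to 107 in Sham. Mb, myoglobin, was at 0 in every RM, HS and Sham library, and the myosin gene Myh2 was at 0 in every RM-HS and RM library. The ranges of the summed markers overlapped between Sham and each injury group. Those of Dok7, Synpo2l and Tnni3k did not, as for 4.90% of tested rows, and for Tnni3k only narrowly (RM 1 at 136, Sham 2 at 143). These genes were chosen for their fall from Sham, so this contrast with the markers was set in advance and is read no further.

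Smim5, a small membrane protein of little-studied function (GSRG0037594, rn6 chromosome 10, 104451222 to 104457002), had 0, 3.49 and 2.85 in RM-HS libraries. Counts in RM ran from 0 to 8.47 with a median of 1.15, and in HS it was 2.49, 6.80, 0, 16.6 and 1.60, against 95.7 to 157 with a median of 115 in Sham. It was the steadiest of the 9 genes in Sham, with a coefficient of variation of 18.6%. Its means in RM-HS, RM and HS were 1.76%, 2.33% and 4.59% of the Sham mean, and the log2 differences were -5.53 ± 0.79, -5.40 ± 0.64 and -4.84 ± 0.67. The RM share was 1.38% without RM 1, and the HS share 2.27% without HS 4.

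Lrtm2, a leucine-rich repeat membrane protein (GSRG0023438, rn6 chromosome 4, 151375571 to 151390189), had 22.9, 6.98 and 4.28 in RM-HS libraries. In the RM libraries it ranged from 0 to 12.7 with a median of 3.18, and in HS it was 9.97, 3.40, 0, 0 and 0, against 16.2 to 98.0 with a median of 55.7 in Sham. RM-HS 1 stood above Sham 5, so the RM-HS and Sham groups overlapped. The log2 differences from Sham were -2.24 ± 0.92, -3.87 ± 0.75 and -4.45 ± 0.78 for RM-HS, RM and HS, and the mean was 20.5%, 6.87% and 4.82% of the Sham mean. These shares rested on single libraries: the RM-HS share was 10.1% without RM-HS 1, the RM share 3.66% without RM 1 and the HS share 1.53% without HS 1. With a term for the name letter (R or S) in the fit, the RM difference was -2.10.

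Rd3l, the relative of the retinal guanylate cyclase regulator Rd3 (GSRG0027337, rn6 chromosome 6, 136548321 to 136550316), had 0, 0 and 18.5 in RM-HS libraries. In RM it was at 0 in 5 libraries and at 3.04 in RM 3, and in HS it was 15.0, 20.4, 0, 5.88 and 4.80, against 11.4 to 129 with a median of 55.9 in Sham. Sham 1, at 11.4, lay below 1 RM-HS and 2 HS libraries, so only RM was clear of the Sham range. The RM libraries held 3 reads in all and the Sham libraries 341, a ratio of 0.915% by size-factor-weighted reads (exact 95% interval 0.188% to 2.70%, counting error only). The log2 differences from Sham were -4.21 ± 1.0, -5.30 ± 0.82 and -2.89 ± 0.86 for RM-HS, RM and HS.

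Set side by side, the 3 comparisons share the Sham libraries. The median log2 difference of the 9 genes was -4.32 for RM-HS, -4.48 for RM and -3.65 for HS, beside medians of -0.03, -0.04 and -0.03 over all tested rows. Every library lay below every Sham library for 7 of 9 genes in RM-HS, 9 of 9 in RM and 7 of 9 in HS, where this held for 16.1%, 12.4% and 12.2% of all tested rows. All 14 injury libraries lay below all Sham libraries for 6 of the 9, and for 4.90% of tested rows. A log2 difference of -3 or lower was found for 8, 8 and 6 of the 9 genes in RM-HS, RM and HS, and for 1.49%, 1.02% and 0.627% of rows. The genes were chosen for these differences, so the counts describe them and are read no further.

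Markers of kidney cell types moved in both directions while the 9 genes fell. Of 8 collecting duct principal cell markers, 8 fell in RM-HS, in RM and in HS by limma, where 21.0%, 26.8% and 23.2% of all rows fell, and their summed count was 9510 to 21875, 12915 to 41543 and 14929 to 23386, against 35842 to 94153 in Sham. Of 9 thick ascending limb markers, 5 fell in RM-HS, 7 in RM and 8 in HS. Of the 7 early proximal tubule markers, 6, 6 and 4 rose, where 21.3%, 26.2% and 23.3% of all rows rose. Podocyte markers rose for 3, 7 and 5 of 8, and 1 fell in RM-HS. Of 8 inner medulla markers, 2, 4 and 4 fell and 1 rose in each injury group. Of 3 late proximal tubule markers, 2 fell and 1 rose in each. Of 6 endothelial markers, 1 rose in each injury group, and 1, 0 and 3 fell in RM-HS, RM and HS. Of 7 mural cell markers, 2, 2 and 1 rose, and 0, 0 and 1 fell. No distal convoluted tubule marker passed. Of 7 intercalated cell markers, 3 fell in RM-HS, 2 in RM and 6 in HS, with sums of 13181 to 17777, 14051 to 21485 and 9164 to 15485, against 17645 to 32626 in Sham, so that HS lay wholly below Sham. Leukocyte markers rose for 3 of 6 in RM-HS, 3 in RM and 0 in HS, with sums of 8412 to 12898, 5915 to 21072 and 2773 to 8889, against 2117 to 5715 in Sham. The summed neuron and nerve markers overlapped between groups, at 79.8 to 177, 89.9 to 186 and 38.2 to 144, against 88.3 to 195 in Sham, and Snap25, a synaptic vesicle fusion gene, was at 0 in every library. The part of these cell types in the levels of the 9 genes was not tested.

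**Figure D2:**
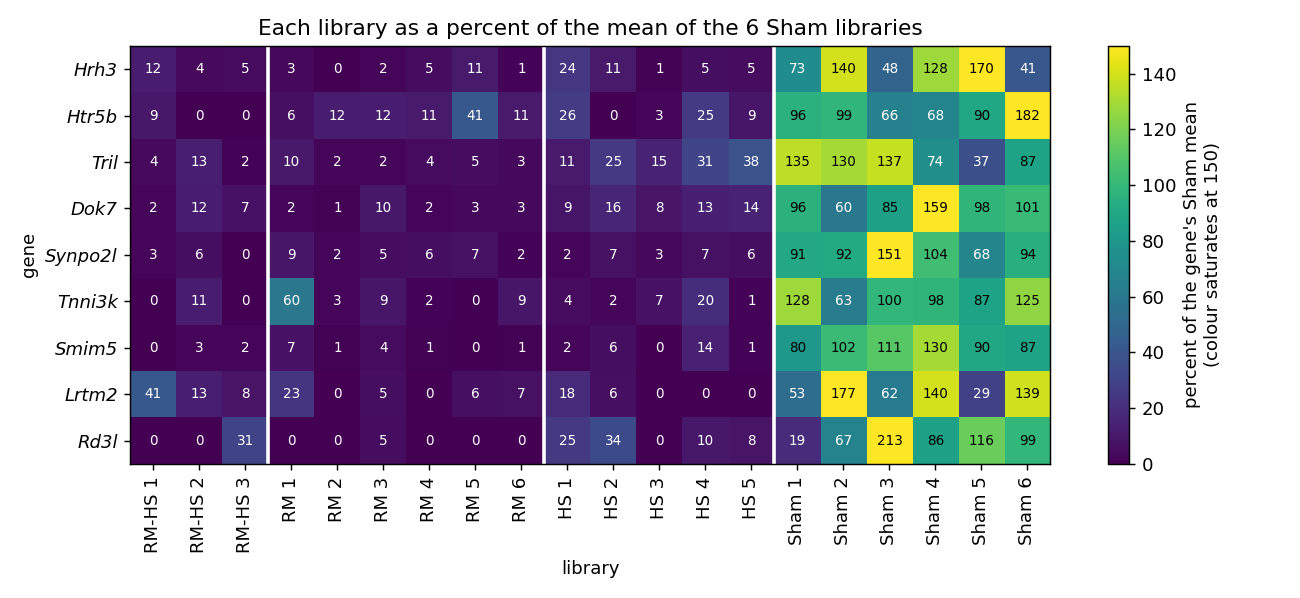
Heat map of the 9 genes (down) in the 20 libraries (across), each value being the library's normalised count as a percent of that gene's mean over the 6 Sham libraries, with white lines between RM-HS, RM, HS and Sham. Most squares of the injury libraries are below 20%, and single libraries stand out, such as RM 1 for Tnni3k (59.7%) and RM 5 for Htr5b (41.4%).

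For some genes, a single library carried much of what remained in an injury group. For others, such as Dok7 in HS (15.3 to 30.6), the counts were spread over the libraries. RM 1 was the highest of the 6 RM libraries for 5 of the 9 genes, namely Tril, Synpo2l, Tnni3k, Smim5 and Lrtm2. The share of all tested rows with RM 1 highest is not given, so this count only describes these genes. RM 1 is also the only RM library whose name begins with R, the other 5 beginning with S. All 3 RM-HS and all 6 Sham libraries are named R, so RM against Sham and RM-HS against RM nearly coincide with the name letter, which can hardly be told apart from the group there. Among libraries named R, where RM 1 stands for RM, the median log2 difference of the 9 genes from Sham was -3.66, and that of Tnni3k was -0.70. The summed count of 8 principal cell markers, none at 0 in any group as a whole, was 41543 in RM 1 and 12915 to 17509 in the other RM libraries, against 35842 to 94153 in Sham. The summed thick ascending limb markers were likewise 254331 in RM 1 and 129988 to 167917 in the other RM libraries, against 214038 to 374994 in Sham. The part of these markers or of the name letter in the values of RM 1 was not tested. In RM-HS no library stood highest throughout: RM-HS 1 led for Hrh3, Htr5b and Lrtm2, RM-HS 2 for Tril, Dok7, Synpo2l, Tnni3k and Smim5, and RM-HS 3 for Rd3l.

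The injury groups were next compared with each other, which asks whether the 9 genes differed by kind of injury. These contrasts were not named by the rule, but they reuse the injury libraries by which the genes were chosen, so their p-values are not free of that choice. The choice may have leaned on RM, where 9 of 9 genes lay below every Sham library, against 7 of 9 in HS. Such a choice would by itself favour lower values in RM than in HS, the direction of the 3 calls there. Tril and Dok7 were lower in RM than in HS, and Tril was also lower in RM-HS than in HS. Rd3l passed narrowly in RM against HS. By limma with Benjamini-Hochberg adjustment over all rows, 3 of 9 genes were lower in RM against HS (12.6% of rows), 1 was lower in RM-HS against HS (10.6%), and 0 differed in RM-HS against RM (1.08% of rows in either direction). For RM-HS against RM, 1 gene had an unadjusted p under 0.05 by limma, 1 by edgeR and 2 by DESeq2, and 0 passed after adjustment by edgeR or DESeq2. No share of all rows at the unadjusted cut-off is given, so the unadjusted counts are read no further.

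Tril averaged 20.8 ± 14.5 in RM (SD, n = 6) and 111 ± 52.7 in HS (n = 5), with every RM library below every HS library, as for 8.21% of rows. The log2 difference was -2.43 ± 0.49 (limma adjusted p = 0.0014). By library name, RM 1 at 48.7 was level with HS 1 at 49.0 and below HS 2 and 3 at 116 and 69.5, all named R, and the difference among libraries named R was -0.58 (limma adjusted p = 0.79, with 1 RM library). Among libraries named S, RM 2 to 6 at 10.1 to 22.2 stood far below HS 4 and 5 at 144 and 178, with a difference of -3.37 (limma adjusted p = 0.0043). With the letter as a covariate it was -2.41 (limma adjusted p = 0.0059), and without RM 1 it was -2.71 (limma adjusted p = 0.00048). Over all alternatives the adjusted p ran from 8.5e-06 by DESeq2 to the 0.79 given for limma among libraries named R.

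Tril averaged 27.9 ± 26.8 in RM-HS (n = 3) against 111 ± 52.7 in HS, a log2 difference of -2.26 ± 0.59 (limma adjusted p = 0.012). The groups overlapped, because RM-HS 2 at 58.2 was above HS 1. The call was lost without RM-HS 3 (-1.58, limma adjusted p = 0.098) and among libraries named R (-1.82, limma adjusted p = 0.11), and over all alternatives the adjusted p ran from 0.003 to 0.11. Between RM-HS and RM the difference was 0.16, with a 95% interval of -1.04 to 1.36.

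Dok7 averaged 6.87 ± 5.81 in RM and 23.0 ± 6.73 in HS, a log2 difference of -1.82 ± 0.43 (limma adjusted p = 0.0046). Of the RM libraries, RM 3 at 18.2 overlapped HS and the other 5 lay below it. Among libraries named S the difference was -1.99 and did not pass (limma adjusted p = 0.10). Among those named R it was -2.0 (limma adjusted p = 0.21), a value that rests on 1 RM library and assumes that it varies like the other groups. With the letter as a covariate it passed (-1.99, limma adjusted p = 0.0079), as it did without RM 1 (-1.75, limma adjusted p = 0.0091), and over all alternatives the adjusted p ran from 0.00084 to 0.21.

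Rd3l averaged 0.506 ± 1.24 in RM and 9.21 ± 8.27 in HS, a log2 difference of -2.41 ± 0.86 (limma adjusted p = 0.046). HS 3 had no read, so the groups overlapped. The call did not hold in 21 of 33 alternatives, among them each fit that left out HS 1, 2, 4 or 5, or RM 1, 2, 4, 5 or 6 (limma adjusted p = 0.069 to 0.13), and the name letter as a covariate (limma adjusted p = 0.087). Over all alternatives the adjusted p ran from 0.0097 to 0.48.

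For the other genes no difference between injury groups passed. Htr5b in RM-HS against RM had the largest difference in size, larger than those that passed. Its means were 3.27 ± 5.66 in RM-HS and 16.1 ± 13.5 in RM, with a log2 difference of -2.70 ± 0.90 (limma adjusted p = 0.15). Lrtm2 in RM-HS against HS went the other way, at 11.4 ± 10 in RM-HS and 2.67 ± 4.34 in HS, with a difference of 2.21 ± 0.95 (limma adjusted p = 0.10). For Smim5 the 95% intervals were -1.77 to 1.51 in RM-HS against RM and -1.96 to 0.85 in RM against HS. Tnni3k was among the least precise, with an interval of -4.35 to 0.50 in RM-HS against RM.

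**Figure D3:**
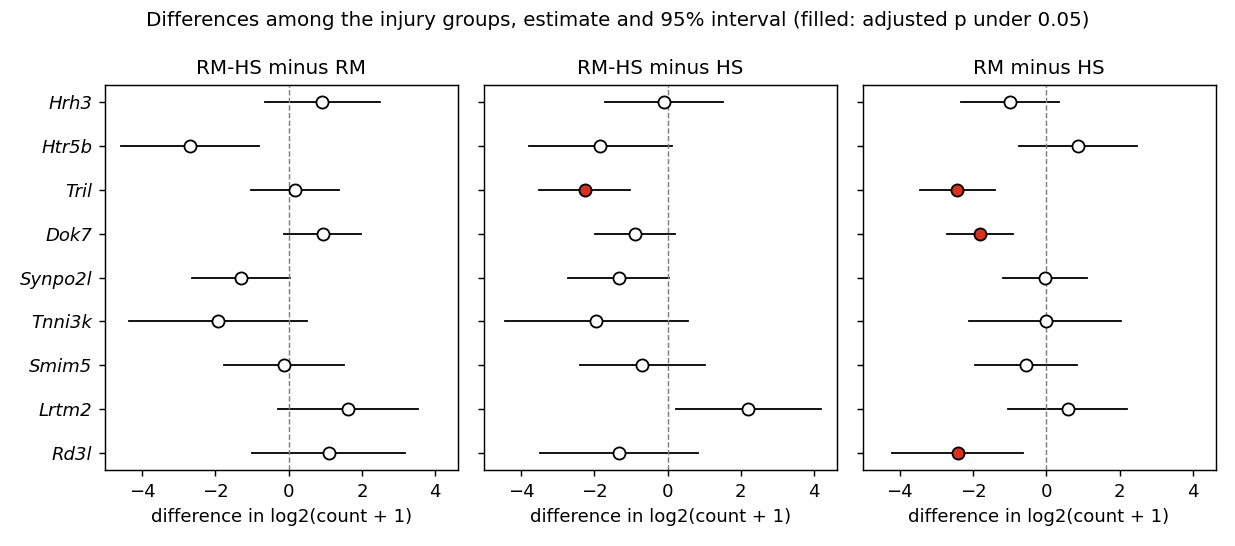
Difference in log2(normalised count + 1) between injury groups for each gene, as limma estimates (points) with 95% intervals (lines), in 3 panels for RM-HS minus RM, RM-HS minus HS and RM minus HS. Filled points have an adjusted p under 0.05: Tril in RM-HS minus HS, and Tril, Dok7 and Rd3l in RM minus HS.

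The genes beside the 9 on their chromosomes did not fall as far as the gene they lie beside. The 9 were chosen for large falls from Sham and their neighbours were not, so the choice itself favours this contrast. There were 20 such genes, made up of the nearest tested gene on each side and any gene overlapping in position. Against Sham, 9 were lower and 4 higher in RM-HS, 7 and 4 in RM, and 5 and 5 in HS, where 21.0% and 21.3%, 26.8% and 26.2%, and 23.2% and 23.3% of all rows were. Their log2 differences ran from -2.23 to 1.49, from -1.0 to 1.96 and from -1.98 to 0.66. In RM-HS and RM the extremes were the genes next to Tril: Creb5, a transcription factor, rose by 1.96 ± 0.24 in RM (limma adjusted p = 1.3e-06), and Cpvl fell by 2.23 in RM-HS (limma adjusted p = 0.034).

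Overlap in position concerned 2 of the 9. Smim5 lies inside the span of Recql5, a DNA helicase gene (rn6 chromosome 10, 104443736 to 104482858). Recql5 averaged 319 ± 46.3 in RM-HS, 323 ± 28.8 in RM and 540 ± 42.5 in HS, against 619 ± 80.7 in Sham. It fell by 0.96 in RM-HS and 0.93 in RM on the log2 scale (limma adjusted p = 9.9e-06 and 5.1e-07). In HS its log2 difference from Sham was -0.19 (limma adjusted p = 0.16), where Smim5 stood at -4.84. Lrtm2 lies inside Cacna2d4, a calcium channel subunit gene, which averaged 2.25 ± 1.95, 14.5 ± 16.9 and 1.5 ± 3.34 in RM-HS, RM and HS, against 6.97 ± 4.79 in Sham, and did not pass in any of them (limma adjusted p = 0.40, 0.65 and 0.089). Whether reads were counted by strand is not given in the sources used here, so reads of overlapping genes may not be fully separated. Myoz1, a Z-disc gene 2899 bases from Synpo2l, averaged 11.7 ± 6.23, 27.2 ± 14.2 and 13.0 ± 6.08 in RM-HS, RM and HS, against 13.5 ± 8.90 in Sham, and passed in none.

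**Figure D4:**
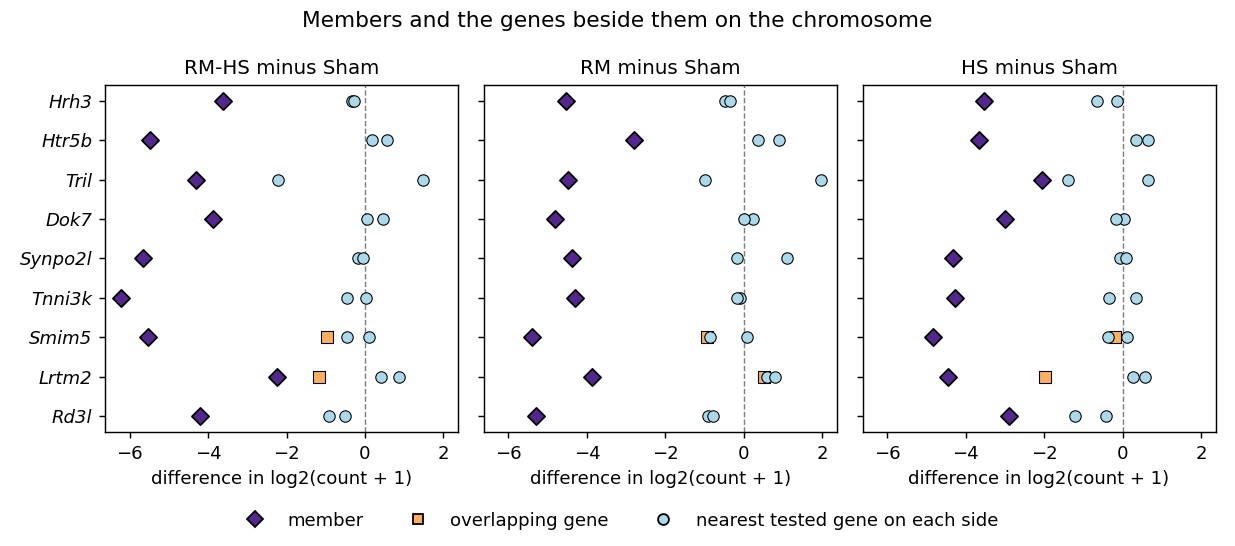
Difference in log2(normalised count + 1) from Sham for each of the 9 genes (diamonds), for genes that overlap them (squares) and for the nearest tested gene on each side (circles), in panels for RM-HS, RM and HS. Each diamond lies left of its own neighbours in each panel, which the choice of the 9 by their falls from Sham favours. The neighbours lie between -2.23 and 1.96.

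Relatives and partners of the 9 genes were then examined from family lists, counted without the members themselves. The lists were written with earlier results of these data known. In each list the share that passed against Sham can be set beside that of all rows, given above for the neighbours. Among 8 tested neuromuscular junction genes, 2 fell and 1 rose in RM-HS, 3 fell and 1 rose in RM, and 2 fell in HS. Rapsn, which anchors acetylcholine receptors, fell in all 3, averaging 19.6 ± 8.22, 32.8 ± 21.4 and 32.7 ± 13.0 in RM-HS, RM and HS, against 241 ± 42.2 in Sham (log2 difference -3.61, -3.03 and -2.92, limma adjusted p = 1.7e-06, 3.9e-07 and 2.9e-06). Agrn, the nerve signal that acts through MuSK, fell by 0.69 in RM-HS and 0.68 in RM (limma adjusted p = 0.021 and 0.0046). The receptor subunit Chrne fell by 0.71 in RM and by 1.18 in HS (limma adjusted p = 0.034 and 0.0022).

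Of 6 DOK relatives, 1 fell in RM-HS, 1 in RM and 2 in HS, and the change of Dok4, an adaptor of receptor kinases, was -0.85 in RM (limma adjusted p = 7.2e-05). Of the 2 synaptopodin relatives, Synpo rose in RM (0.74, limma adjusted p = 0.0035) and in HS (0.68, limma adjusted p = 0.010), and Synpo2 fell in RM (-0.72, limma adjusted p = 0.039). Synpo is a podocyte gene, and the summed podocyte markers were 9707 to 11314 in RM-HS, 10323 to 13408 in RM and 9642 to 11841 in HS, against 3183 to 10724 in Sham; their part in this rise was not tested. Of 11 tested sarcomere and Z-disc genes, 1 fell in RM-HS, 1 in RM and 2 in HS, and 1 rose in HS. Ldb3, a Z-disc protein, fell in each (-1.78, -0.86 and -1.68, limma adjusted p = 0.0026, 0.046 and 0.00097), and Acta1, skeletal actin, rose in HS (2.83, limma adjusted p = 0.0027).

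Receptor systems did not move as 1 block. Beside Hrh3, the histamine-degrading enzyme Hnmt fell in RM-HS, RM and HS (-0.86, -0.54 and -0.75, limma adjusted p = 0.00071, 0.0041 and 0.00051), while the H1 receptor Hrh1 rose in RM-HS and RM (1.14 and 1.08, limma adjusted p = 0.015 and 0.0043). The histamine-making enzyme Hdc rose in RM-HS (2.54, limma adjusted p = 0.017). Beside Htr5b, 7 serotonin genes were tested, of which 1 rose and 1 fell in RM-HS, 1 rose and 2 fell in RM, and 2 rose and 3 fell in HS. Htr4, another serotonin receptor, averaged 0.683 ± 1.23 in RM and had no read in any RM-HS or HS library, against 24.2 ± 14.3 in Sham. Tph1, which makes serotonin, rose by 2.24, 2.24 and 2.21 in RM-HS, RM and HS (limma adjusted p = 0.015, 0.0029 and 0.0055), and Htr2a fell in HS (-2.80, limma adjusted p = 0.0017).

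Of 22 tested Toll-like receptor pathway genes other than Tril, 4 rose and 3 fell in RM-HS, 6 rose and 3 fell in RM, and 4 rose and 3 fell in HS. Tlr3, which senses double-stranded RNA, fell in all (-1.76, -1.58 and -0.69, limma adjusted p = 3.4e-06, 4.2e-07 and 0.0042). The signalling proteins Irak2 (0.93, 0.58 and 0.64, limma adjusted p = 1.1e-05, 8.1e-05 and 7.3e-05) and Traf6 (0.88, 0.89 and 1.03, limma adjusted p = 0.00031, 1.7e-05 and 1.2e-05) rose in all. Tlr4 itself, named after its values were seen because Tril acts with it, rose in RM and HS (0.87 and 0.97, limma adjusted p = 0.0027 and 0.0019). Tlr4 averaged 141 ± 27.3 in RM-HS against 121 ± 42.3 in Sham, and did not pass there (limma adjusted p = 0.40).

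Of 13 other small integral membrane protein genes, 4 fell and 2 rose in RM-HS, 7 fell in RM, and 7 fell and 2 rose in HS, with medians of -0.21, -0.28 and -0.26. Smim20, with the smallest adjusted p of the list, fell by 0.64, 0.93 and 0.88 (limma adjusted p = 0.00017, 1.3e-07 and 1.3e-06). Smim3 fell by 0.90, 1.17 and 1.02 (limma adjusted p = 0.0038, 3.2e-05 and 0.0003). Both fell less than Smim5, which was chosen for its difference from Sham. Beside Rd3l, 2 genes of its list were tested, and Gucy2d, a retinal guanylate cyclase, fell in RM-HS (-4.49, limma adjusted p = 0.0035). No relative of Lrtm2 passed, with 1 tested.

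Genes with the most similar pattern were found by the root mean square difference of log2(count + 1) over the 20 libraries, each gene centred on its own mean, among 12966 other rows with a symbol. A smaller value means a closer pattern, and the libraries share their groups. The closest to Dok7 were Inpp5j, an inositol phosphatase (0.81), and Lrrc66 (0.82), where the median row was at 2.07. Closest to Tril were Fam180a (0.82) and Pirt (0.84), and to Synpo2l Wscd1 (0.84) and the transcription factor Atoh8 (0.97). For Smim5 they were LOC100910558 (0.99) and Htr4 (1.1), for Tnni3k Trim29 (1.02) and the luteinising hormone receptor Lhcgr (1.24), and for Hrh3 the protease Adamts16 (1.10) and Inpp5j (1.11). Lrtm2 was closest to Ankrd65 (1.16) and Fads6 (1.22), Rd3l to Dok7 (1.26) and the adrenergic receptor Adra2c (1.33), and Htr5b to Zp4 (1.28) and Defb12 (1.36). Among the 9 themselves the nearest pair was Dok7 and Tril (1.08) and the farthest Rd3l and Tnni3k (2.53). The measure is not scaled for each gene's own spread, which in part sets such distances. By the same root mean square, that spread was 2.04 for Dok7 and 2.05 for Tril, but 2.49 for Rd3l and 2.77 for Tnni3k.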

How the data were processed

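Bulk kidney mRNA libraries were stranded and sequenced paired-end, per the labels' protocols. The submitters' processing notes name FastQC 0.11.2, Picard 1.119, SAMtools 1.0, STAR, Subread 1.5.0, featureCounts, DESeq2 and the rn6 build. The deposited signal values are normalised read counts per gene; the processing notes name DESeq2, and the values step as whole reads divided by 1 size factor per library. Whole reads were recovered for 100% of values within 0.1 read, and were used for depth and for the count tests.

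Log2(value + 1) of rows with at least 10 in 3 libraries was fitted with limma 3.58.1 (R 4.3.3) with a mean-variance trend over all 20 libraries, adjusted by Benjamini-Hochberg, and called at 0.05. The fit was checked on simulated data, with changes placed in rows with a mean count above 20. Most injury-group means of the 9 genes were below that, so the check says little about them. Groups came from the labels, and replicate numbers are names only. Alternatives were count tests of the recovered reads (edgeR 4.0.16, DESeq2 1.42.0), other scalings, filters and pseudocounts, pairwise fits, the name letter, and leaving out each library. Of 43 pairs within groups, none was a repeated library. The genes and lists were chosen with earlier results of these data known. Named genes were the 9, up to 3 genes a list by smallest adjusted p, nearest or overlapping neighbours, and the 2 most similar rows each.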

Additional observations from a re-analysis of the deposited data

Results flagged for a closer look

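In 27 groups of 5 or 6 libraries (9 genes in RM, HS and Sham), a single library lay apart by Dixon's criterion at the 95% level 7 times. In all 7 it was the highest library. Chance gives about 1 in 20 for normal values in independent groups. These are low counts with a floor at 0, and the groups share libraries, so that rate need not hold here. No share of all tested rows is given for this criterion, so the 7 cannot be read as particular to these genes. RM 1 was such a library for 3 genes: Tril at 48.7 (other RM libraries 10.1 to 22.2), Tnni3k at 136 (0 to 20.3) and Lrtm2 at 12.7 (0 to 3.80). RM 3 stood above the other RM libraries for Dok7 at 18.2 (2.08 to 6.66). Rd3l in RM 3, at 3.04, counts among the 7 only because the other RM libraries had no read, where any value above 0 meets the criterion; it is 3 reads, no more than a 0 allows. For Htr5b, RM 5 stood at 43.3 (6.35 to 12.5), and Sham 6 at 190 (68.6 to 103).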

How the results depend on the processing

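No called difference among injury groups, and no difference from Sham, changed sign under any alternative run. Differences among injury groups that did not pass changed sign in places, such as Tnni3k, RM against HS, which was -0.02 with all libraries and 3.75 among those named R. The median difference from Sham in RM was -3.31 with a pseudocount of 8, against -4.48 with 1. Single genes shifted more, as for Rd3l in RM, at -2.80 with 8, -5.30 with 1 and -6.83 by DESeq2. In RM-HS, Smim5 was at -3.66 with 8 against -5.53 with 1, and Htr5b at -3.35 against -5.49. The number of genes called in RM-HS against HS was 0 among libraries named R, and 0 to 2 when 1 library was left out: 0 without RM-HS 3, and 2 without HS 1, HS 2, RM-HS 1 or RM-HS 2. In RM against HS it was 0 among libraries named R and 1 among those named S (chosen after seeing the data), and 2 to 3 when 1 library was left out. Among libraries named R the Tnni3k difference in RM against Sham was -0.70, resting on RM 1 alone; the cause of these shifts was not tested. Counts of genes below every Sham library were not recomputed for pseudocounts, filters, count tests, pairwise fits or the covariate. No paired analysis was possible because the labels carry no replicate numbers. Counts of a few reads per injury library limit all differences between injury groups.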
